A study of Homo sapiens with 2 samples.

Results

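Complexins, synaptotagmins and SNARE proteins move and fuse membrane vesicles, and their transcripts were compared between MDA Pca 2b and LNCaP prostate cancer cells. The genes were chosen by symbol, as every row of the count table named for a complexin (CPLX1 to CPLX4), a synaptotagmin (SYT), a syntaxin (STX), a vesicle-associated membrane protein (VAMP) or a numbered SNAP gene. This gave 49 genes of the 20802 in the table: 4 complexins, 17 synaptotagmins, 16 syntaxins, 7 VAMPs and 5 SNAP genes. One of them, SNAP91, matches by symbol alone, since it encodes the clathrin adaptor AP180 and not a SNARE protein.

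MDA Pca 2b was established from a bone metastasis of prostate cancer and LNCaP from a lymph node metastasis. Both lines were labelled wild type, with no treatment other than the extraction of total RNA, and both carried the same batch label. Each line had 1 library, made by AmpliSeq from 10 ng of RNA, a method that amplifies 1 short stretch of each transcript with its own primer pair. The study set cell lines of different patient origin side by side, and cultured cells of 1 donor each limit both groups as models.

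SNARE proteins sit on vesicles and on their target membranes, where they zip into a bundle that pulls the membranes together. Syntaxins and SNAP-25 relatives usually stand on the target side and VAMPs on the vesicle side, and each organelle uses its own set. Synaptotagmins are vesicle proteins with C2 domains, several of which sense calcium and trigger fusion. Complexins bind the assembled bundle and both hold it and ready it for release. In the prostate, luminal cells secrete proteins of the seminal fluid by exocytosis, and neuroendocrine cells carry dense-core granules.

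Levels are given in CPM, in which each count is divided by the scaled depth of its own library, and each ratio is MDA Pca 2b over LNCaP with an exact 95% interval. A gene was taken as measured with at least 10 counts in either library. It was called higher or lower in MDA Pca 2b when its whole interval lay beyond 2-fold. The libraries held 8558660 counts in MDA Pca 2b and 10778061 in LNCaP, so that 1 count was worth 0.117 CPM in MDA Pca 2b and 0.0923 CPM in LNCaP. With 1 library per line there was no replicate spread and no test, and every statement compares these libraries. PCR copies could not be told from separate molecules, so the intervals cover counting error only. Each gene rests on 1 amplicon, so levels of different genes compare only roughly, and a primer pair that fails in a line leaves the same 0 as a silent gene, which was not tested.

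Of the 49 genes, 32 were measured, 9 had between 1 and 9 counts in their higher library, and 8 had no count in either library. CPLX3, SYT17 and STX16 were higher in MDA Pca 2b, which is 3 of 32 (9.38%), against 10.9% of all 14418 measured genes. SYT4, STX7, VAMP8 and SNAP91 were lower in MDA Pca 2b, which is 4 of 32 (12.5%), against 13.2% of all measured genes. In either direction 21.9% of the measured members were called, against 24.1% of all measured genes, so as a group they were called at about the background share. The median log2 ratio was 0.12 over the measured members and 0.00 over all measured genes. Of the 25 measured members that were not called, 13 had their whole interval within 2-fold and 12 had an interval that crossed it.

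**Figure D1:**
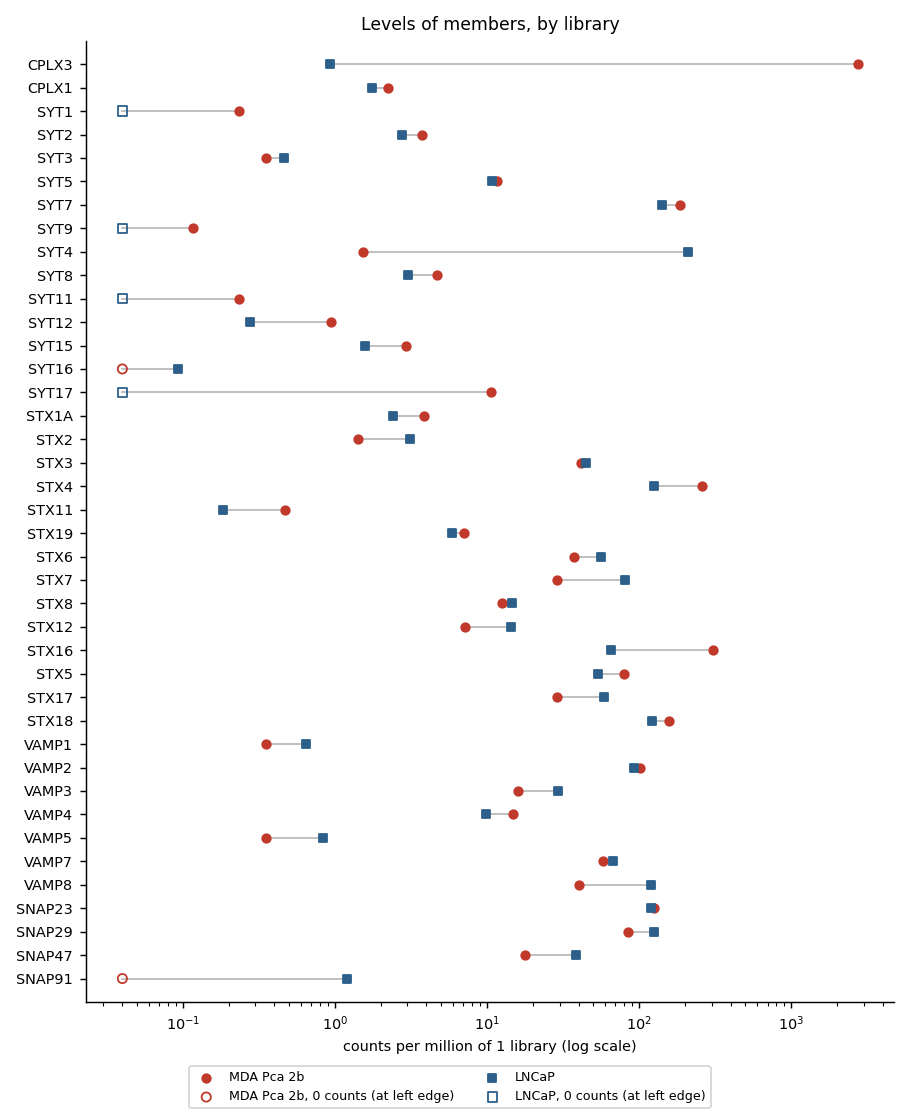
Levels of members with at least 1 count, in CPM on a log axis, with the MDA Pca 2b library as red circles, the LNCaP library as blue squares and a grey line joining them. Open symbols at the left edge mark 0 counts; CPLX3, SYT17 and SYT4 have the longest lines, while SYT7, VAMP2 and SNAP23 have almost none.

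The start regions are shown of the 4 called members with a single RefSeq window, CPLX3 and STX16, higher in MDA Pca 2b, and SYT4 and VAMP8, lower. STX7 and SNAP91, also lower, have 3 and 4 windows, which are described but not printed. The sequences are the 250 bases before the RefSeq gene start in GRCh38.p14, written 5′ to 3′ on the strand of the gene, with each CpG dinucleotide in capitals as CG. CPLX3 lies at chr15:74826377-74826626 on the plus strand, STX16 at chr20:58651033-58651282 on the plus strand, SYT4 at chr18:43277491-43277740 on the minus strand and VAMP8 at chr2:85577336-85577585 on the plus strand.
CPLX3: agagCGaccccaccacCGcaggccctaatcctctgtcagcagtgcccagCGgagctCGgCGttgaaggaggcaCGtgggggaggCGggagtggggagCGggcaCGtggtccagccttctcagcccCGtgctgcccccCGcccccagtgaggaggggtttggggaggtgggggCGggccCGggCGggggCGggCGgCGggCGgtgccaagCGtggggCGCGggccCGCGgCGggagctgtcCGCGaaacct
STX16: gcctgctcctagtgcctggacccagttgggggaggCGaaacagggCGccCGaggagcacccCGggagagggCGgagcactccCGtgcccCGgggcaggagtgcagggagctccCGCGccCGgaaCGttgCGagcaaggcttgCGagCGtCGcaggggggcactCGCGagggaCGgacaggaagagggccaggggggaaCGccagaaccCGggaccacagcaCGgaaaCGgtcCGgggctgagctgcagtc
SYT4: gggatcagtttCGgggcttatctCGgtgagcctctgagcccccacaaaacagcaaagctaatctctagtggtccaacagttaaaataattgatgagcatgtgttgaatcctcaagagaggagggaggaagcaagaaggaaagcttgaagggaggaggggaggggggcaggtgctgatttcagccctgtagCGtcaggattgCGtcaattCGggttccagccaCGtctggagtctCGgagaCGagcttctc
VAMP8: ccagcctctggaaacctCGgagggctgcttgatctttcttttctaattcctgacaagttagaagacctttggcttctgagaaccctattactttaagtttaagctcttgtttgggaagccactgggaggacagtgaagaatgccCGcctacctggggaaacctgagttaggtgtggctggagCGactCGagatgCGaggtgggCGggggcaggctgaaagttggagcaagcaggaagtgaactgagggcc

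The CpG content of the windows varied among the called members, and those lower in MDA Pca 2b included both poor and rich ones. CPLX3 has 26 CpG in its 250 bases with 76.0% G and C, and an observed over expected CpG ratio of 0.74. STX16 has 23 CpG, 72.0% G and C and a ratio of 0.73. SYT4 has 8 CpG, 52.8% G and C and a ratio of 0.48, and VAMP8 has 6 CpG, 52.8% G and C and a ratio of 0.36. The windows of STX7, which was lower in MDA Pca 2b, range in ratio from 0.13 to 0.72 with 1 to 25 CpG. Those of SNAP91, also lower, range from 0.19 to 0.93 with 2 to 36 CpG, so that some of them are as rich as the window of CPLX3. Over all 35116 windows of the RefSeq table, the median was 58.0% G and C and a ratio of 0.56. These are properties of the reference sequence, and DNA methylation was not measured here.

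Short motifs were searched on both strands of the same 250 bases, and no motif is contained in another. They were TGACTCA, bound by AP-1 and held by 4.2% of all windows, TGACGTCA, the cyclic AMP response element, held by 1.65%, AGAACA, a half-site of the androgen receptor, held by 12.4%, and GGACAGC, a half-site of the neuronal repressor REST, held by 4.76%. CPLX3 has 1 match to GGACAGC, beginning 16 bases before the gene start on the minus strand, and the windows of SYT4, STX16 and VAMP8 have no match to any. Over their several windows, STX7 has 1 match to AGAACA, at 145 bases, and SNAP91 has 1, at 208 bases before the start of its window's transcript. A match of letters is a description and not a binding site. Windows were found for 40 of the 49 members, and SYT17 was not among them.

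Among the complexins, nearly all of the signal was CPLX3 in MDA Pca 2b. CPLX3 is a complexin best known from the ribbon synapses of the retina. It had 23311 counts (2739 CPM) in MDA Pca 2b and 10 counts (0.923 CPM) in LNCaP, a ratio of 2969 (1614 to 6191). It ranked 27 by count in the MDA Pca 2b library and 13620 in the LNCaP library, and 1 gene of the whole table had a higher lower interval end. CPLX1, a main complexin of brain synapses, had 19 counts in each library, a ratio of 1.27 (0.638 to 2.54) after scaling for depth. CPLX2, the other main complexin of the brain, and CPLX4, the closest relative of CPLX3, had 0 counts in both lines, which allows up to 0.352 CPM in MDA Pca 2b and 0.277 CPM in LNCaP. CPLX3 thus made up 99.9% of all complexin counts in MDA Pca 2b (exact 95% interval 99.9 to 100) and 34.5% in LNCaP (17.9 to 54.3). The complexins summed to 2741 CPM in MDA Pca 2b and 2.68 CPM in LNCaP. In MDA Pca 2b this sum was above that of every other family here, the syntaxins being next at 993 CPM.

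The genes that mark retinal cells were at or near 0 in both lines. Of 11 markers of photoreceptor and bipolar cells, 1 was measured and 8 had no count in either line, among them RCVRN (recoverin) and CRX, the transcription factor of photoreceptors. The list summed to 5.52 CPM in MDA Pca 2b and 2.03 CPM in LNCaP. GNAT1, the transducin subunit of rods, was higher in MDA Pca 2b, with 43 counts against 13 in LNCaP, a ratio of 4.21 (2.22 to 8.54).

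The lines used different synaptotagmins, with SYT7 abundant in both, SYT17 detected in MDA Pca 2b alone and SYT4 far lower in MDA Pca 2b. SYT7, a calcium sensor of high affinity that acts in slow exocytosis and in the fusion of lysosomes with the cell surface, had 1585 counts (186 CPM) in MDA Pca 2b and 1525 counts (141 CPM) in LNCaP. Its ratio of 1.32 (1.23 to 1.42) lay wholly within 2-fold. SYT4, which in mammals does not bind calcium through its first C2 domain and is found on the Golgi apparatus and on dense-core vesicles, had 13 counts (1.53 CPM) in MDA Pca 2b and 2289 counts (211 CPM) in LNCaP. It was 138-fold lower in MDA Pca 2b (80.7 to 260). SYT17, a synaptotagmin without a membrane-spanning segment, had 91 counts (10.7 CPM) in MDA Pca 2b and 0 in LNCaP. Against a floor of 3 counts per library its ratio was at least 38.6, and the lower end of its interval was 30.8.

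The makeup of the family differed accordingly. SYT7 gave 83.3% of all synaptotagmin counts in MDA Pca 2b (81.6 to 85) and 37.9% in LNCaP (36.4 to 39.5). SYT4 gave 0.683% in MDA Pca 2b (0.364 to 1.17) and 56.9% in LNCaP (55.4 to 58.5). The 17 synaptotagmins summed to 223 CPM in MDA Pca 2b and 371 CPM in LNCaP, most of the LNCaP sum being SYT4. The 8 calcium-binding synaptotagmins alone summed to 202 CPM in MDA Pca 2b and 155 CPM in LNCaP. In bulk RNA, fewer cells that express a gene and less RNA in each cell cannot be told apart.

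The fast calcium sensors of synapses were scarce or absent. SYT1, the main sensor of the forebrain, had 2 counts in MDA Pca 2b and 0 in LNCaP, and SYT9 had 1 count in MDA Pca 2b and 0 in LNCaP. SYT2, the fast sensor of the brainstem and of nerve to muscle contacts, had 32 counts in MDA Pca 2b and 30 in LNCaP, a ratio of 1.36 (0.799 to 2.31). SYT5, another calcium-binding synaptotagmin, had 100 counts in MDA Pca 2b and 117 in LNCaP, a ratio of 1.09 (0.825 to 1.43). Of the calcium-binding group, SYT3 had 3 counts in MDA Pca 2b and 5 in LNCaP, while SYT6 and SYT10 had 0 in both. Thus 3 of the 8 calcium-binding synaptotagmins were measured, and none of these 3 was called, against 24.1% of all measured genes.

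Most of the remaining synaptotagmins lack residues that bind calcium. SYT8 had 40 counts in MDA Pca 2b and 33 in LNCaP, a ratio of 1.54 (0.949 to 2.53). SYT15 had 25 counts in MDA Pca 2b and 17 in LNCaP, a ratio of 1.87 (0.972 to 3.7), which is uncertain because a near-identical copy, SYT15B, can share its reads. SYT12 had 8 counts in MDA Pca 2b and 3 in LNCaP, SYT11 had 2 in MDA Pca 2b and 0 in LNCaP, and SYT16 had 0 in MDA Pca 2b and 1 in LNCaP. SYT13 and SYT14 had no count in either line.

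**Figure D2:**
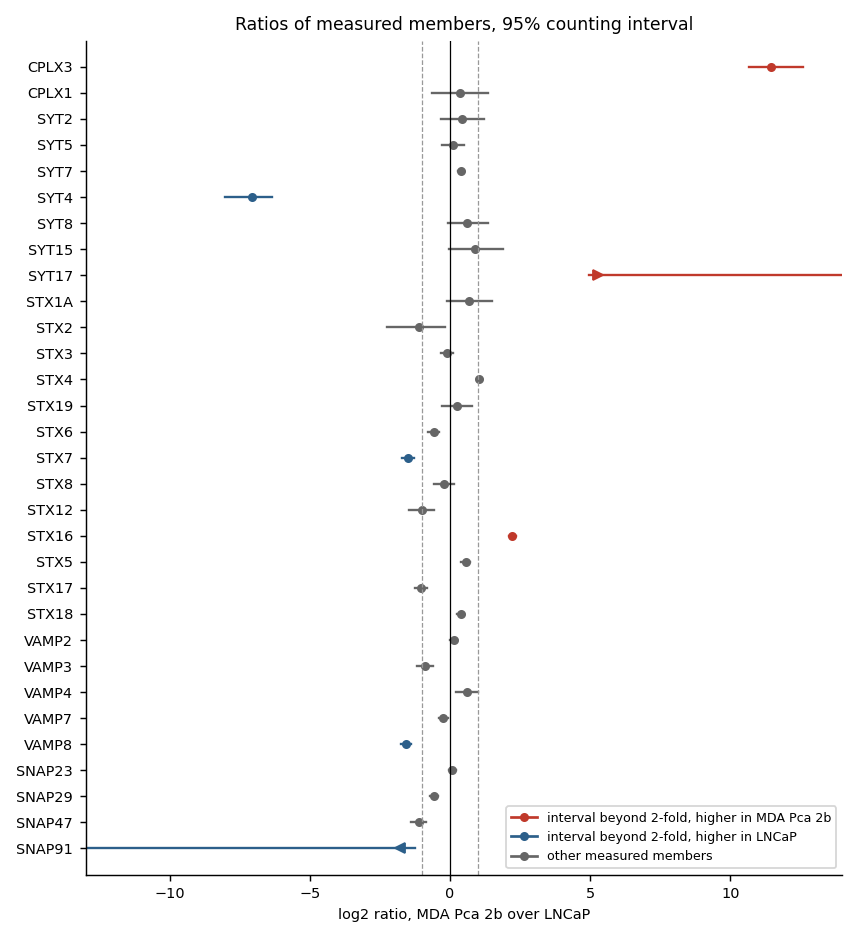
Log2 ratio of MDA Pca 2b over LNCaP for the measured members shown, with its 95% counting interval; dashed lines mark 2-fold. Triangles are bounds against 3 counts for genes at 0 in 1 library. CPLX3 lies far to the right and SYT4 far to the left, and most other members lie between the dashed lines or across one of them.

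The syntaxins of the cell surface showed no called difference, against 24.1% of all measured genes called, although several had high counts. STX4, the syntaxin of the basolateral membrane and of glucose transporter delivery, had 2224 counts (261 CPM) in MDA Pca 2b and 1364 counts (126 CPM) in LNCaP. Its ratio was 2.08 (1.94 to 2.22), across the 2-fold line, and it was called higher when the libraries were scaled by their upper quartile. STX3, the syntaxin of the apical membrane, had 353 counts in MDA Pca 2b and 484 in LNCaP, a ratio of 0.929 (0.807 to 1.07). STX1A, a syntaxin of nerve terminals, had 33 counts in MDA Pca 2b and 26 in LNCaP, a ratio of 1.62 (0.938 to 2.81).

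The remaining surface syntaxins had few counts. STX2, also called epimorphin, had 12 counts in MDA Pca 2b and 34 in LNCaP, a ratio of 0.449 (0.212 to 0.89), and STX19, an epithelial syntaxin without a membrane-spanning segment, had 60 counts in MDA Pca 2b and 64 in LNCaP, a ratio of 1.19 (0.825 to 1.73). STX11, the syntaxin of cytotoxic lymphocytes, had 4 counts in MDA Pca 2b and 2 in LNCaP.

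Among the syntaxins of endosomes and the trans-Golgi network, STX16 was higher and STX7 lower in MDA Pca 2b. STX16 receives vesicles that return from endosomes to the trans-Golgi network. It had 2600 counts (305 CPM) in MDA Pca 2b and 712 counts (65.7 CPM) in LNCaP, a ratio of 4.65 (4.28 to 5.06). It gave 30.8% of all syntaxin counts in MDA Pca 2b (29.8 to 31.8) and 9.97% in LNCaP (9.28 to 10.7). Its value is uncertain because a transcript that reads through from STX16 into NPEPL1 is annotated and the amplicon cannot be assigned to either transcript here. STX7, a syntaxin of late endosomes, had 244 counts (28.7 CPM) in MDA Pca 2b and 880 counts (81.2 CPM) in LNCaP, and was 2.83-fold lower in MDA Pca 2b (2.45 to 3.28).

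The other measured endosomal syntaxins had ratios below 1 without being called. STX6, the partner of STX16 at the trans-Golgi network, had 320 counts in MDA Pca 2b and 606 in LNCaP, a ratio of 0.672 (0.585 to 0.771). STX8, the partner of STX7, had 107 counts in MDA Pca 2b and 158 in LNCaP, a ratio of 0.862 (0.668 to 1.11). STX12, a syntaxin of recycling endosomes, had 61 counts in MDA Pca 2b and 156 in LNCaP, a ratio of 0.498 (0.364 to 0.674). STX10, which works at the trans-Golgi network, had no count in either line. The median log2 ratio over the 5 measured syntaxins of this group was -0.57, against 0.47 over the 6 measured syntaxins of the cell surface. The ranges overlapped, from -1.5 to 2.22 in this group and from -1.12 to 1.05 at the cell surface.

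Early in the secretory route no syntaxin was called, against 24.1% of all measured genes. STX5, the syntaxin of the Golgi stack, had 675 counts in MDA Pca 2b and 582 in LNCaP, a ratio of 1.48 (1.32 to 1.65), and STX18, which receives vesicles at the endoplasmic reticulum, had 1334 counts in MDA Pca 2b and 1308 in LNCaP, a ratio of 1.3 (1.2 to 1.4). These 2 intervals lay within 2-fold. STX17, the syntaxin through which autophagosomes fuse with lysosomes, had 245 counts in MDA Pca 2b and 642 in LNCaP, a ratio of 0.486 (0.418 to 0.564) that crossed 2-fold.

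Among the vesicle-side SNAREs, VAMP8 was lower in MDA Pca 2b. VAMP8 serves late endosomes, autophagosomes and the regulated secretion of exocrine cells. It had 344 counts (40.4 CPM) in MDA Pca 2b and 1293 counts (119 CPM) in LNCaP, 2.95-fold lower in MDA Pca 2b (2.62 to 3.33). The calls of STX7 and VAMP8 rest on counting error, and neither passed with an assumed spread of 20% between cultures added. VAMP2, the VAMP of nerve terminals that also serves regulated exocytosis elsewhere, had 865 counts in MDA Pca 2b and 1010 in LNCaP, a ratio of 1.09 (0.995 to 1.2). VAMP2 was the most counted VAMP in MDA Pca 2b, with 44% of the family (41.8 to 46.2) against 29% in LNCaP (27.5 to 30.6). VAMP8 was the most counted in LNCaP, and its share was 17.5% in MDA Pca 2b (15.8 to 19.3) and 37.2% in LNCaP (35.5 to 38.8).

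The other VAMPs were not called. VAMP3, the relative of VAMP2 on recycling endosomes, had 135 counts in MDA Pca 2b and 319 in LNCaP, a ratio of 0.539 (0.437 to 0.661). VAMP4, a SNARE of the trans-Golgi network, had 126 counts in MDA Pca 2b and 106 in LNCaP, a ratio of 1.51 (1.16 to 1.98). VAMP7, a SNARE of lysosomes whose gene lies in the region shared by the X and Y chromosomes, had 490 counts in MDA Pca 2b and 736 in LNCaP, a ratio of 0.848 (0.755 to 0.952). VAMP1, the neuronal relative of VAMP2, had 3 counts in MDA Pca 2b and 7 in LNCaP, and VAMP5, a VAMP of muscle, had 3 in MDA Pca 2b and 9 in LNCaP.

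The SNAP-25 family was carried by its widely expressed members, and SNAP25 itself was not detected. SNAP25, the partner of STX1A and VAMP2 at nerve terminals, had 0 counts in both lines, which allows up to 0.352 CPM in MDA Pca 2b and 0.277 CPM in LNCaP. SNAP23, its counterpart in most other tissues, had 1071 counts (126 CPM) in MDA Pca 2b and 1291 counts (119 CPM) in LNCaP, a ratio of 1.06 (0.973 to 1.15). SNAP29, which acts with STX17 on autophagosomes, had 718 counts in MDA Pca 2b and 1358 in LNCaP, a ratio of 0.673 (0.614 to 0.738), and SNAP47 had 151 counts in MDA Pca 2b and 417 in LNCaP, a ratio of 0.461 (0.38 to 0.557). None of these 3 was called, against 24.1% of all measured genes. The clathrin adaptor gene SNAP91 had 0 counts in MDA Pca 2b and 13 in LNCaP, at least 3.4-fold lower in MDA Pca 2b against the floor of 3 counts. Its interval end nearest to no difference was 2.39, and its call was lost when both libraries were thinned to 1 total.

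SNARE proteins work in sets, so the members were also laid out by the complexes they are known to form. The sets were drawn up after the values had been seen and serve as a description only. In the late endosome set of STX7, STX8, VTI1B and VAMP8, all 4 point estimates were below 1: 0.353 for STX7, 0.862 for STX8, 0.597 for VTI1B and 0.339 for VAMP8. STX7 and VAMP8 were the called ones, and VTI1B, the fourth SNARE of that set, had 404 counts in MDA Pca 2b and 862 in LNCaP (0.529 to 0.673). In the autophagosome set the ratios were 0.486 for STX17, 0.673 for SNAP29 and 0.339 for VAMP8, a protein it shares with the late endosome set.

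In the trans-Golgi set of STX16, STX6, VTI1A and VAMP4 the members went apart. STX16 at 4.65 and VTI1A at 2.78 were higher in MDA Pca 2b, VAMP4 was at 1.51 and STX6 at 0.672. VTI1A had 611 counts in MDA Pca 2b and 280 in LNCaP (2.41 to 3.21). In the set for exocytosis outside neurons, the ratios were 2.08 for STX4, 0.929 for STX3, 1.06 for SNAP23, 0.539 for VAMP3 and 0.339 for VAMP8. In the neuronal set, STX1A and VAMP2 had counts in both lines and SNAP25 had none.

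**Figure D3:**
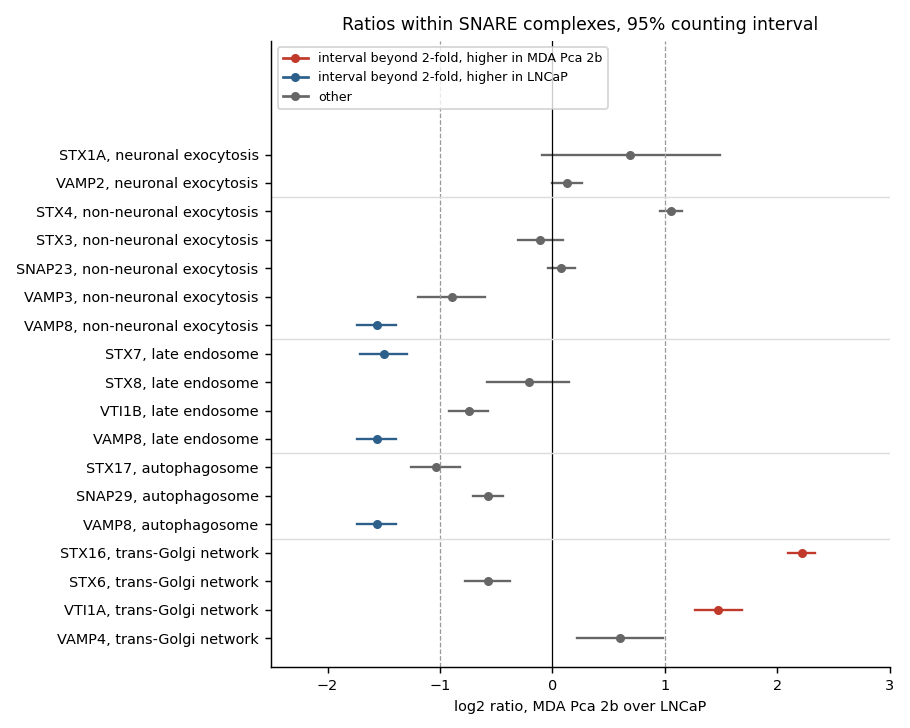
Log2 ratio of MDA Pca 2b over LNCaP with its 95% counting interval, by known SNARE complex; dashed lines mark 2-fold, and SNAP25 is not drawn because it had no counts. The late endosome and autophagosome points all lie left of 0, and STX16 and VTI1A lie to the right of the 2-fold line.

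The genes next to each called member were read to see whether a difference extended along the chromosome. Next to CPLX3 on chromosome 15, LMAN1L, a lectin-like relative of a cargo receptor, had 1200 counts in MDA Pca 2b and none in LNCaP, a ratio of at least 509. On the other side ULK3, a kinase of the autophagy family, had 1335 counts in MDA Pca 2b and 1400 in LNCaP, a ratio of 1.21 (1.13 to 1.31). CPLX3 and LMAN1L thus stood apart together, while the median log2 ratio over the 18 measured genes among the 10 on each side of CPLX3 was 0.12.

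SYT17 on chromosome 16 also lay between genes higher in MDA Pca 2b. ITPRIPL2, before it, had 423 counts in MDA Pca 2b and 49 in LNCaP, a ratio of 11 (8.17 to 15.1). TMC5, a membrane protein of the transmembrane channel-like family after it, had 751 counts in MDA Pca 2b and none in LNCaP, a ratio of at least 319. Beyond these, COQ7 had a ratio of 1.02 (0.86 to 1.21) and GDE1 a ratio of 1.03 (0.936 to 1.13). One gene further out than COQ7, TMC7, of the same family as TMC5, was higher again, with 44 counts in MDA Pca 2b and 8 in LNCaP, a ratio of 7 (3.26 to 17.2). These last 3 genes were picked after their values were seen. The median log2 ratio over 16 measured neighbours was -0.11.

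SYT4 on chromosome 18 had no called gene directly beside it. RIT2, a small GTPase of neurons, had 19 counts in MDA Pca 2b and 12 in LNCaP, a ratio of 2.02 (0.929 to 4.55), and SETBP1, which binds the oncoprotein SET, had 114 in MDA Pca 2b and 288 in LNCaP, a ratio of 0.504 (0.402 to 0.628). Neither was called. Over 16 measured neighbours of SYT4 the median log2 ratio was -0.51.

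The other called members also had no called gene directly beside them. NPEPL1, an aminopeptidase gene after STX16 on chromosome 20, had 1243 counts in MDA Pca 2b and 767 in LNCaP, a ratio of 2.06 (1.88 to 2.26), and APCDD1L-AS1 before it had none. Beside STX7 on chromosome 6, MOXD1 had 0 counts in MDA Pca 2b and 2 in LNCaP, and TAAR9, a trace amine receptor, had 115 in MDA Pca 2b and 56 in LNCaP, a ratio of 2.62 (1.88 to 3.67). Further out, and read after their values were seen, TAAR8, TAAR6, TAAR5, TAAR3 and TAAR1 had uncalled ratios between 1.6 and 2.1. TAAR2 had 0 counts in both lines. Whether the counts of these TAAR genes come from receptor transcripts was not tested. Beside VAMP8 on chromosome 2, GGCX, the carboxylase that uses vitamin K, had 197 counts in MDA Pca 2b and 533 in LNCaP, a ratio of 0.471 (0.398 to 0.555), and VAMP5 is the neighbour on the other side. PRSS35 and RIPPLY2, on both sides of SNAP91 on chromosome 6, had no counts. Beyond PRSS35, ME1, the cytosolic malic enzyme, had 0 counts in MDA Pca 2b and 3728 in LNCaP, at least 976-fold lower in MDA Pca 2b, and beyond RIPPLY2, CYB5R4 had 13 in MDA Pca 2b and 29 in LNCaP, a ratio of 0.571 (0.272 to 1.13). These 2 genes were also picked after their values were seen. Among the 10 genes on each side, SNAP91 had 1 higher and 2 lower in MDA Pca 2b, of 15 measured. CPLX3 had 3 higher and 3 lower of 18, and SYT17 had 4 higher and 3 lower of 16. SYT4 had 1 higher and 1 lower of 16, and STX16 had 1 higher and 1 lower of 10. STX7 had 2 higher and 1 lower of 14, and VAMP8 had none higher and 1 lower of 12. Of all measured genes, 10.9% were higher and 13.2% lower in MDA Pca 2b.

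**Figure D4:**
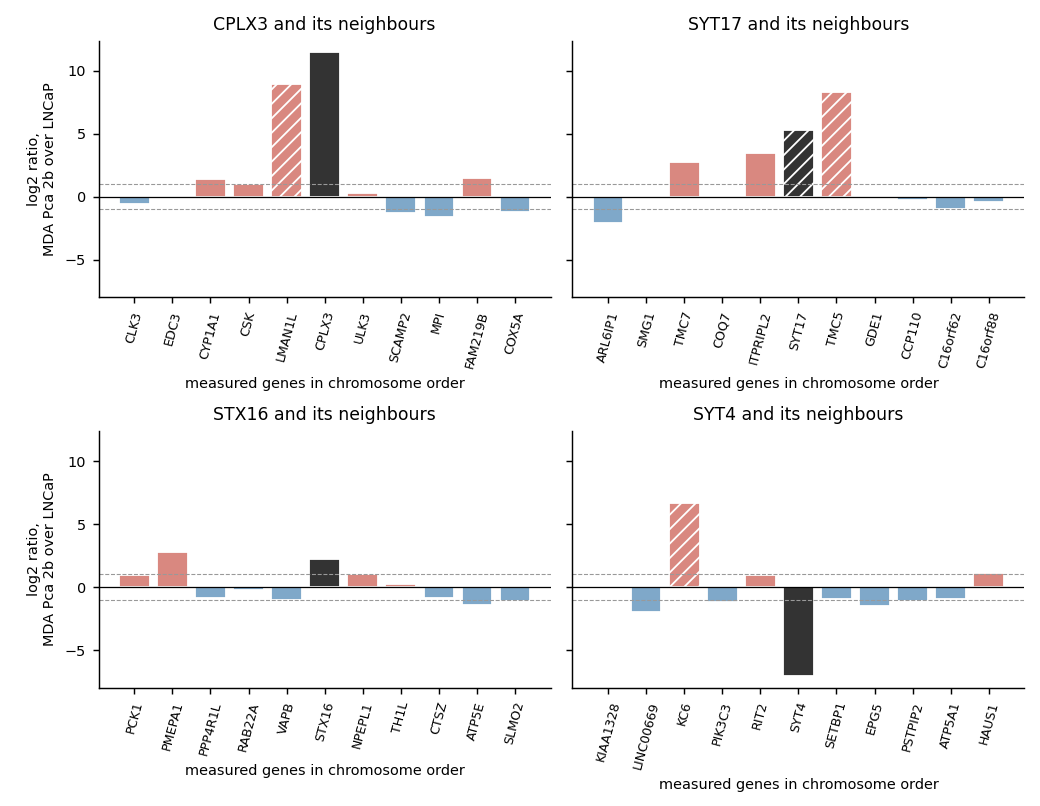
Log2 ratio of MDA Pca 2b over LNCaP for CPLX3, SYT17, STX16 and SYT4 (black) and up to 5 measured genes on each side in chromosome order (red higher, blue lower in MDA Pca 2b); hatched bars are bounds against 3 counts, and dashed lines mark 2-fold. LMAN1L beside CPLX3, and ITPRIPL2 and TMC5 beside SYT17, stand out with their neighbour. The genes directly beside SYT4 do not, while KC6, further out, is higher in MDA Pca 2b.

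Proteins that act on SNAREs were read from lists of known roles. The other SNAREs, 12 of 12 measured, had 1 gene higher in MDA Pca 2b, VTI1A, and 1 lower, SEC22A, with a median log2 ratio of -0.36. These are 8.33% in each direction, against 10.9% higher and 13.2% lower of all measured genes. SEC22A, a relative of the SNARE of transport between endoplasmic reticulum and Golgi, had 78 counts in MDA Pca 2b and 457 in LNCaP and was 4.6-fold lower in MDA Pca 2b (3.61 to 5.93).

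The proteins that assemble and take apart SNARE bundles, 16 of 16 measured, had 1 gene higher in MDA Pca 2b (6.25%, against 10.9% of all measured genes) and 5 lower (31.2%, against 13.2%), with a median log2 ratio of 0.02. STXBP2, which clasps syntaxins in epithelial and blood cells, had 1908 counts in MDA Pca 2b and 902 in LNCaP and was higher in MDA Pca 2b, a ratio of 2.69 (2.49 to 2.92). STXBP5L and STXBP6 encode tomosyn-2 and amisyn, which carry a VAMP-like segment that occupies syntaxin. STXBP5L had 58 counts in MDA Pca 2b and 746 in LNCaP, 10.1-fold lower in MDA Pca 2b (7.73 to 13.4), and STXBP6 had 1 count in MDA Pca 2b and 63 in LNCaP, 49.5-fold lower (8.56 to 1985).

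Genes for proteins that dock and prime vesicles had the largest share higher in MDA Pca 2b among these lists. The lists were chosen with earlier results of these data known, so this share is a description only. Of 25 such genes 18 had enough counts, and in MDA Pca 2b 8 of them were higher (44.4%, against 10.9% of all measured genes) and 1 was lower (5.56%, against 13.2%). Their median log2 ratio was 0.83. All 25 genes together summed to 1504 CPM in MDA Pca 2b and 1379 CPM in LNCaP. CADPS2, a priming factor of dense-core vesicles, had 1407 counts in MDA Pca 2b and 127 in LNCaP, a ratio of 14.1 (11.8 to 17.1). SYTL5, a synaptotagmin-like effector of RAB27, had 244 in MDA Pca 2b and 23 in LNCaP, a ratio of 13.5 (8.8 to 21.7), and RAB3B, a small GTPase of secretory vesicles, had 374 in MDA Pca 2b and 76 in LNCaP, a ratio of 6.27 (4.89 to 8.13). The lower gene was RIMS1, a scaffold of the sites where synaptic vesicles are released, with 2528 counts in MDA Pca 2b and 10736 in LNCaP, 3.33-fold lower in MDA Pca 2b (3.19 to 3.48).

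The exocyst, which tethers vesicles to the cell surface, had 9 of 9 genes measured, 1 higher in MDA Pca 2b (11.1%, against 10.9% of all measured genes) and none lower (against 13.2%), with a median log2 ratio of 0.05. EXOC6B had 457 counts in MDA Pca 2b and 220 in LNCaP, a ratio of 2.65 (2.25 to 3.12). Of 10 other membrane proteins with C2 domains 8 were measured, 2 of them higher in MDA Pca 2b (25%, against 10.9% of all measured genes) and none lower (against 13.2%), with a median log2 ratio of 0.78. MCTP1 had 45 counts in MDA Pca 2b and 8 in LNCaP, a ratio of 7.16 (3.34 to 17.6), and MYOF (myoferlin), which acts in membrane repair, had 66 in MDA Pca 2b and 15 in LNCaP, a ratio of 5.6 (3.16 to 10.6).

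The vesicle proteins and granule cargo that neurons and endocrine cells use with these SNAREs were mostly too scarce to compare. Of 27 genes 7 were measured and 10 had no count in either line, among them the chromogranins CHGA and CHGB. In MDA Pca 2b none was higher (against 10.9% of all measured genes) and 1 was lower (14.3%, against 13.2%), and the median log2 ratio was -0.45. SYNGR2, the synaptogyrin of tissues other than brain, had 859 counts in MDA Pca 2b and 2661 in LNCaP, 2.43-fold lower in MDA Pca 2b (2.25 to 2.63).

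**Figure D5:**
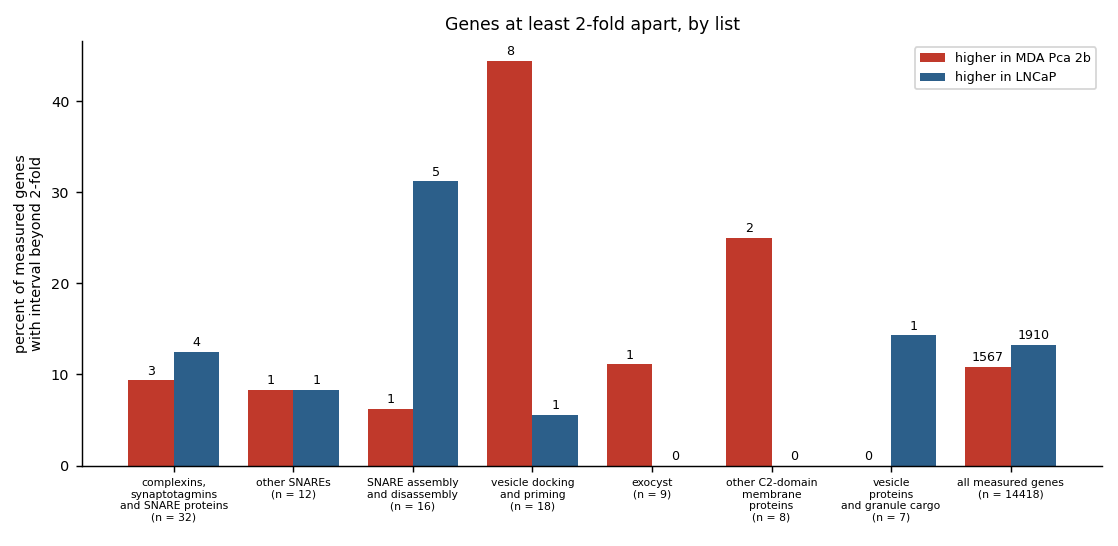
Percent of measured genes in each list whose interval lies beyond 2-fold, higher in MDA Pca 2b in red and higher in LNCaP in blue, with the count of genes above each bar. The complexins, synaptotagmins and SNARE proteins have bars of 9.38% and 12.5%, close to the 10.9% and 13.2% of all measured genes. Docking and priming genes have the tallest bar, at 44.4%. The lists were chosen with earlier results of these data known.

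Markers of cell types were read beside these results. All 10 markers of luminal prostate epithelium were measured and summed to 4671 CPM in MDA Pca 2b and 5456 CPM in LNCaP. Of 8 neuroendocrine markers 2 were measured, ENO2 and INSM1, and the list summed to 90.9 CPM in MDA Pca 2b and 90.7 CPM in LNCaP, with CHGA, CHGB and NEUROD1 among those at 0 in both. ENO2 and INSM1 went apart, and both stayed uncalled. ENO2 had 467 counts in MDA Pca 2b and 752 in LNCaP, a ratio of 0.791 (0.703 to 0.889). INSM1 had 303 in MDA Pca 2b and 218 in LNCaP, a ratio of 1.77 (1.48 to 2.12). SYP (synaptophysin) had 4 counts in MDA Pca 2b and 8 in LNCaP. Of 7 leukocyte markers 3 were measured, with sums of 49.3 CPM in MDA Pca 2b and 19.7 CPM in LNCaP, and PTPRC, the general leukocyte antigen, at 0 in both. Fibroblast markers summed to 3.76 CPM in MDA Pca 2b and 14.1 CPM in LNCaP, with 2 of 6 measured, and endothelial markers to 4.35 CPM in MDA Pca 2b and 3.51 CPM in LNCaP, with 2 of 4 measured and CDH5 and KDR at 0 in both. Single markers within these lists also differed. KLK3, prostate-specific antigen, had 15559 counts in MDA Pca 2b and 5952 in LNCaP, a ratio of 3.33 (3.23 to 3.43), and KLK2, a related protease, had 6171 in MDA Pca 2b and 1655 in LNCaP, a ratio of 4.75 (4.5 to 5.02). The luminal genes STEAP2, with 4920 counts in MDA Pca 2b and 23834 in LNCaP, and TMPRSS2, with 2865 in MDA Pca 2b and 9977 in LNCaP, were lower in MDA Pca 2b. CD68 and CD14, genes of macrophages and monocytes, were higher in MDA Pca 2b, with ratios of 2.76 (2.2 to 3.46) for CD68 and 2.79 (2.08 to 3.77) for CD14. COL1A1, a fibroblast collagen, had 24 counts in MDA Pca 2b and 132 in LNCaP, and VWF, an endothelial gene, had 1 in MDA Pca 2b and 20 in LNCaP, both lower in MDA Pca 2b. The other measured endothelial marker, PECAM1, went the other way without being called. It had 36 counts in MDA Pca 2b and 18 in LNCaP, a ratio of 2.55 (1.41 to 4.76). What part such cells or cell states had in the differences above was not tested.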

How the data were processed

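Total RNA of 1 MDA Pca 2b and 1 LNCaP culture was measured by AmpliSeq Transcriptome, per the labels' protocols. The authors deposited whole-number read counts per amplicon, with no normalization visible in the values. The submitters' processing notes name the build hg19 and the tool DESeq without a role; the aligner and the counter were not given in the sources used here. Of 20812 rows, 10 spike-in rows with 0 counts were left out, and 27 of 28 symbols turned into dates were restored.

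Counts were scaled with edgeR 4.0.16 (TMM factors 0.994 for MDA Pca 2b and 1.006 for LNCaP) in R 4.3.3. Ratios have exact Clopper-Pearson 95% intervals, conditional on the sum of both counts, from SciPy 1.17.1; log2 ratios used 0.5 added counts. Measured genes had at least 10 counts in a library, and a count of 0 was read as up to 3 counts. Gene order was looked up for 19925 genes (95.8%) in the GRCh38.p14 gene table. The calling steps were tested on simulated counts. Scalings (library totals, DESeq2 1.42.0, upper quartile, TMM without small nucleolar RNAs), filters, fold thresholds, added counts, thinning, an assumed spread of 20% or 40% and leaving out SNAP91 were tried.

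The text names the members, the genes directly beside each called member, and up to 3 called genes per direction from each list of related genes. The members, lists and markers were chosen with earlier results of these data known. Some genes, 1 or more of them members, are not reported here by name but stay in the counts and sums.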

Additional observations from a re-analysis of the deposited data

How the results depend on the processing

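CPLX3, SYT17 and SYT4 were called under every alternative run, and no called ratio changed sign. Members lower in MDA Pca 2b numbered 4; they were 7 at a fold threshold of 1.5 (SNAP47, STX17 and VAMP3 added), 1 at 3-fold, 1 at 4-fold, 2 with an assumed spread of 20% between cultures and 1 with 40%. STX7 and VAMP8 lost their calls at 3-fold, 4-fold and both spreads, and SNAP91 at 3-fold, 4-fold, a spread of 40%, thinning, and count minimums of 20 or 50. Members higher in MDA Pca 2b numbered 3; they were 4 with STX4 under upper quartile scaling or a threshold of 1.5, and 2 without STX16 at a spread of 40%. The median log2 ratio of the measured members lay between 0.08 and 0.21. Over all measured genes, the share lower in MDA Pca 2b was 22.5% at a threshold of 1.5, 6.21% at 3-fold and 3.84% at 4-fold. The share higher in MDA Pca 2b was 19.3%, 5.9% and 4.22% at these thresholds. Under upper quartile scaling, 12.2% of all measured genes were higher and 11.9% lower in MDA Pca 2b. With a spread of 20%, 6.38% were higher and 7.04% lower, and with 40%, 4.09% were higher and 4.02% lower. In either direction, the called share of all measured genes was 13.4% with a spread of 20% and 8.11% with 40%. These spreads are assumptions, since 1 library per line gives no measure of the true one, and members under 10 counts are too shallow for a ratio to be read. No paired analysis was possible because each line had 1 library and no test was run.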
